A study of Rattus norvegicus with 9 samples.

Results

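The 8 genes described here encode histone demethylases and subunits of Polycomb complexes. Kdm6b and Kdm6a remove methyl groups from lysine 27 of histone H3 (H3K27). Ezh1, Ezh2, Eed and Suz12 belong to the complex that writes that methylation, and Bmi1 and Bcor to other Polycomb complexes. The genes were chosen by name from 36858 gene units, with their values in these groups known. All 8 were measured and entered the fit across all genes. Together they summed the TPM (a transcript's abundance per length, scaled to the same total in every library) of 51 of 80092 listed transcripts, 10 from the reference annotation and 41 assembled from the reads. Total RNA was sequenced from blood CD4+ T cells of SD rats, 8 to 10 weeks old, in 3 groups of 3 libraries. Rats of the combination group had CIA and received compounds in combination over 4 weeks, those of the model group had CIA, and those of the normal group are labelled normal. CIA is read here as collagen-induced arthritis, since the title names rheumatoid arthritis, and what the compounds were is not stated in the labels. Strain, age range and cell type are common to all groups, as is the lack of a stated way of selecting the CD4+ cells. The labels do not tie libraries to single animals, so that p-values measure only the spread between these libraries.

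Trimethylation of H3K27 is laid down by Polycomb repressive complex PRC2, in which Ezh2 or Ezh1 is the methyltransferase, Suz12 holds the complex together and Eed binds the finished mark. PRC1 complexes ubiquitinate histone H2A, and Bmi1 and Bcor belong to different forms of them. Kdm6b and Kdm6a erase the mark, and in mouse T cells the balance of writing and erasing is known to restrain or release genes of helper lineages.

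Among these genes, 2 stood apart in the model libraries. Kdm6b averaged 23.3 ± 8.77 TPM in combination libraries, 103 ± 80 TPM in model libraries and 9.9 ± 1.54 TPM in normal libraries (SD, n = 3 each). Bcor averaged 2.23 ± 0.817 TPM in combination libraries, 26 ± 26.7 TPM in model libraries and 1.89 ± 0.596 TPM in normal libraries (SD, n = 3 each). The PRC2 core gene Suz12 was higher in combination and in model libraries than in normal ones, while the group means of Eed, Ezh1 and Kdm6a differed by at most 1.31-fold. Since the genes were chosen with these contrasts known, their levels and log2 fold changes are given as a description, without p-values. The plot of the 8 genes by library shows every value.

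**Figure D1:**
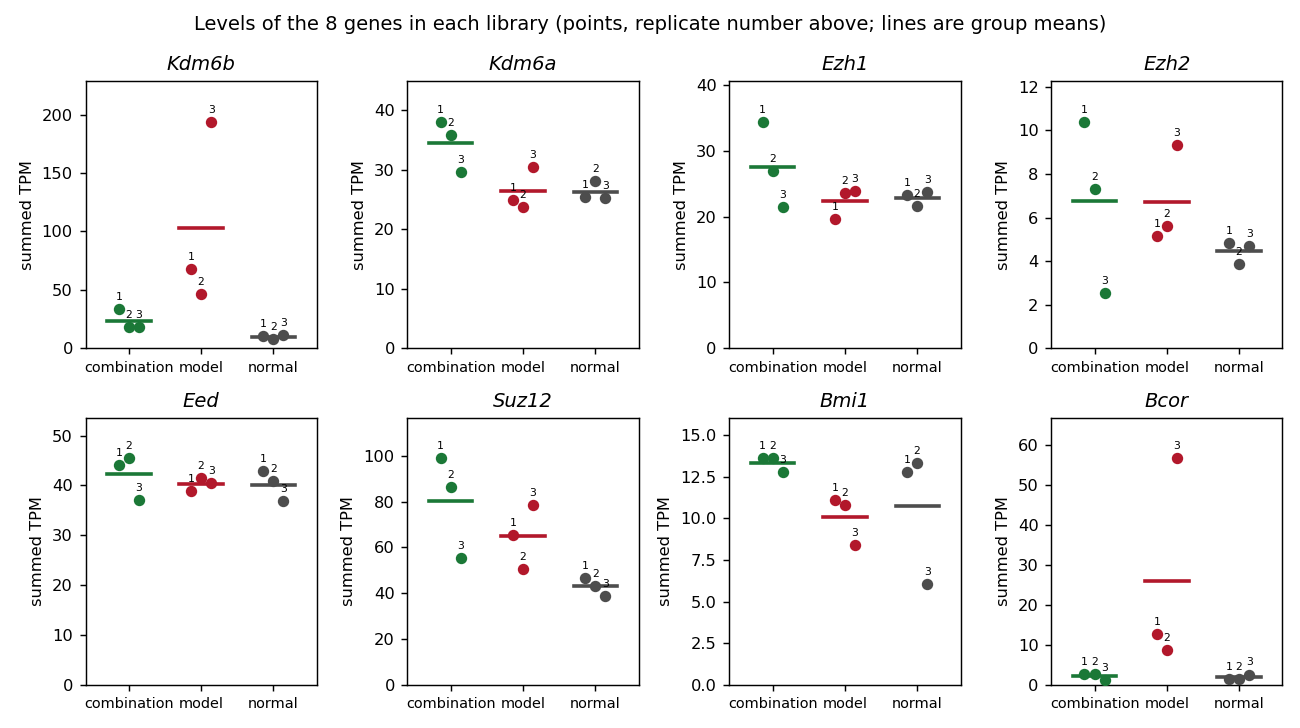
Summed TPM (linear axes from 0) of each of the 8 genes in the 9 libraries, with combination, model and normal from left to right; points are libraries with their replicate number, and lines are group means. Model replicate 3 is the highest library for Kdm6b (194 TPM) and Bcor (56.7 TPM), whereas the Eed libraries of all groups lie between 36.8 and 45.4 TPM.

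The promoters of the 2 genes that stood apart are shown so that their base composition can be compared. They were taken from RefSeq on build GRCr8, which is not the build of the deposited files. Each runs from 250 bases before to 50 bases after an annotated start of the gene. Whether the listed transcripts of Kdm6b and Bcor, which have several starts, begin there was not tested. The stretch for Kdm6b is chr10:54640965-54641264 on the minus strand and that for Bcor is chrX:13360126-13360425 on the plus strand. Capitals mark GC boxes, the letters GGGCGG on either strand, and boxes that overlap run together.
Kdm6b: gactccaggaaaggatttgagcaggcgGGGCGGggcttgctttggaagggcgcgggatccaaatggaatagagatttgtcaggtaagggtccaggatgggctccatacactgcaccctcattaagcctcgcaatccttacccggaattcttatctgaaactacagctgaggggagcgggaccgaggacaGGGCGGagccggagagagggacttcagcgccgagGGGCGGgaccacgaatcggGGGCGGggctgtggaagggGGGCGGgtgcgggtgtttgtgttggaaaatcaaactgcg
Bcor: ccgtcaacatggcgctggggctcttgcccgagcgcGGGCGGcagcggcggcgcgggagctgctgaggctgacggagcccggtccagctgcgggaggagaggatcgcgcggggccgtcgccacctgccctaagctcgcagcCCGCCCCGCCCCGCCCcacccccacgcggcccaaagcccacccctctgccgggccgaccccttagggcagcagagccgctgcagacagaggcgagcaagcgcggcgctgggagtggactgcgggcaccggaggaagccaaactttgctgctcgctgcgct
The Kdm6b stretch held 5 GC boxes and 19 CG dinucleotides with 60% G and C. That of Bcor held 4 GC boxes, of which 3 overlap, and 35 CG dinucleotides with 74.7% G and C. Over 33469 rat promoters of the same length, the median was 51.7% G and C with 7 CG dinucleotides, and 33.1% held a GC box. Neither stretch held, on either strand, an AP-1 site (TGANTCA, in 7.33% of promoters), a cAMP response element (TGACGTCA, 1.83%), a CCAAT box (37.5%), a TATA box (TATAAA, 14.2%), a STAT site (TTCNNNGAA, 8.87%) or the NF-kB consensus (7.51%). Of the 8 genes, 6 had a promoter in this table, and G and C made up 53.7% of the Eed stretch, 59.3% of that of Bmi1, 64.7% of that of Ezh2 and 71.3% of that of Suz12. A match describes letters only.

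Depth, computed from the ratio of coverage to FPKM, was 7.52 to 10.1 aligned gigabases per library, and 86.7% to 89.0% of these bases lay in listed transcripts. Per the file headers, the alignments of the 3 combination libraries carry sample names of another form than their labels, and the groups here follow the labels. Of 7 T cell markers 6 were found, and their TPM summed to between 1617 and 2057 in combination, 1353 and 1816 in model and 1853 and 2565 in normal libraries. Cd4 itself had 142, 121 and 98.1 TPM in combination libraries, 76.5, 186 and 99.1 TPM in model libraries and 202, 230 and 235 TPM in normal libraries, so that every normal library was above the other 6 (log2 fold change -0.89 ± 0.29 for combination against normal, limma adjusted p = 0.0991; -0.98 ± 0.29 for model against normal, limma adjusted p = 0.0779). The 4 erythroid markers summed to between 258 and 862 TPM in combination, 2396 and 16139 TPM in model and 58 and 1115 TPM in normal libraries. The 6 monocyte markers summed to between 349 and 704 TPM in combination, 70.3 and 188 TPM in model and 29 and 174 TPM in normal libraries, and the 4 platelet markers to between 66.3 and 107, 17.9 and 32.2, and 10.3 and 26.5 TPM in these groups. The 4 neutrophil markers summed to between 4.54 and 8.24 TPM in combination, 0.378 and 8.55 TPM in model and 14.1 and 33.2 TPM in normal libraries. This sum came mostly from S100a8 and S100a9. Csf3r averaged 1.27 TPM in combination, 0.189 TPM in model and 0.742 TPM in normal libraries, and Mmp8 0.089, 0.0477 and 0.246 TPM. B cell markers (4 found) summed to between 5.83 and 14.3, 2.67 and 9.18, and 3.93 and 25 TPM in these groups, and cytotoxic or NK cell markers (6) to between 48.7 and 72.2, 33 and 53, and 57.3 and 96.7 TPM. No marker of any list was at 0 in all libraries. In such bulk samples, fewer cells of a type and less RNA per cell cannot be told apart, and the part of these other cells in the levels below was not tested except where a value is given.

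Kdm6b encodes the inducible H3K27 demethylase, also called Jmjd3. Positions of this gene and of those below are taken over all listed transcripts, unless stated otherwise. The Kdm6b gene lies on rat chromosome 10 between positions 55998376 and 56028488 of rn6, on the minus strand. Summed TPM was 33.4, 18.4 and 18 in the combination libraries, 67.6, 46.6 and 194 in the model libraries and 10.3, 8.2 and 11.2 in the normal libraries. All 3 model libraries were above every other library, and the combination libraries lay between the model and the normal ones without overlap. The log2 fold change was -1.88 ± 0.46 for combination against model, 1.11 ± 0.46 for combination against normal and 2.99 ± 0.46 for model against normal (± SE). Without model replicate 3, the highest library, the difference was -1.29 for combination against model and 2.40 for model against normal. The summed erythroid markers, too, were higher in each model library than in the other 6, at 16139, 3343 and 2396 TPM in model replicates 1, 2 and 3, and their part in the Kdm6b difference was not tested.

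The reference transcript of Kdm6b was listed at 0 in all 9 libraries, and 3 assembled transcripts carried the signal. The most abundant, with 15 exons, held 74.8% to 81.6% of Kdm6b TPM in combination libraries, 78.7% to 82.7% in model libraries and 69% to 78% in normal libraries. A 22-exon transcript held 12.4% to 16.9% in combination libraries, 15% to 16.9% in model libraries and 19.2% to 22.1% in normal libraries, so that its share was higher in each normal library than in the other 6. Its exons 9 to 22 were credited with 0 coverage in all 9 libraries. This share therefore describes coverage credited to its first 8 exons, of which exon 1 has 4057 bases, and does not measure a complete isoform. Before scaling to depth, exon 1 had coverage of 100, 53.8 and 139 in model and 25.4, 18.7 and 31.8 in normal libraries. Exon 2, which lies outside the 15-exon transcript, had 1024, 579 and 3444 in model and 79.4, 44.4 and 65.5 in normal libraries. The summed TPM of the model mean was 10.4 times the normal mean. The last exon of the 15-exon transcript, of 3447 bases, had 0.7 to 5.09 units of coverage per aligned gigabase in combination libraries, 0.638 to 1.14 in model libraries and 0.648 to 1.95 in normal libraries. Its other 14 exons, of 4074 bases, had 12.8 to 26.1 units in combination libraries, 39.1 to 158 in model libraries and 4.91 to 8.35 in normal libraries. Within this transcript, the differences therefore lay in the exons upstream of the last one, as the plot of coverage by exon shows. That last exon spans positions 55998376 to 56001822, whereas the reference transcript ends at 56001799. Nearly all of the exon thus lay beyond the reference transcript. Over the bases of the reference exons, coverage gave log2 fold changes of -2.09 for combination against model, 1.31 for combination against normal and 3.40 for model against normal, a measure added after the data were seen. Tmem88, the other name at this locus and on the same strand, shared 1567 exon bases with Kdm6b and had 0 to 1.06 TPM in all libraries. Naa38, on the opposite strand, shared 161 exon bases with Kdm6b and had 61 to 66.9 TPM in combination libraries, 50.3 to 65.3 TPM in model libraries and 54.5 to 64.2 TPM in normal libraries.

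**Figure D2:**
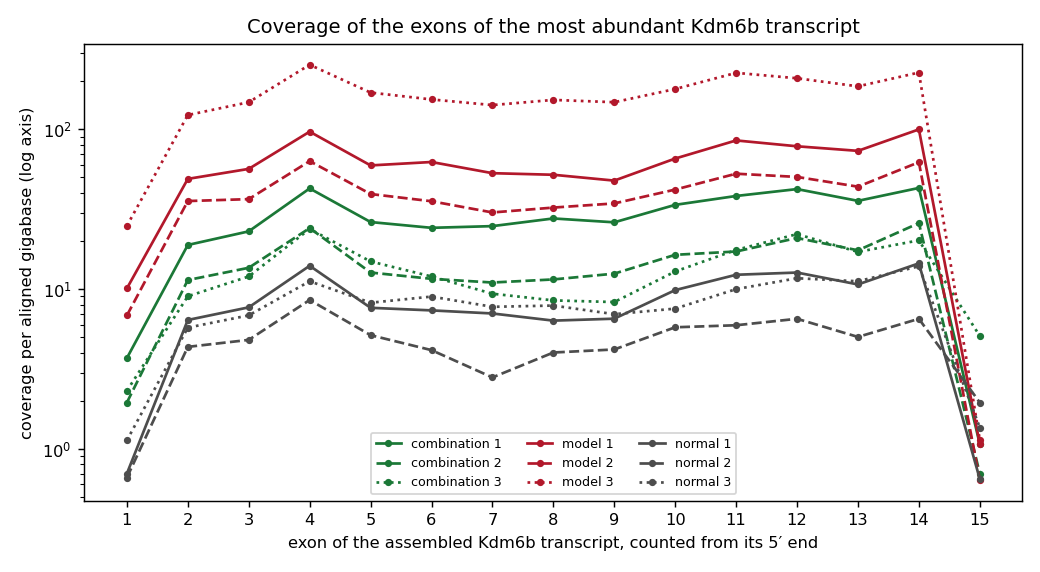
Coverage per aligned gigabase (log axis) of the 15 exons of the most abundant Kdm6b transcript, counted from the 5′ end, with 1 line per library. The model lines run above the combination lines and these above the normal lines over exons 1 to 14, and in exon 15 all lines lie between 0.638 and 5.09.

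Kdm6a, or Utx, is the X-linked relative of Kdm6b and a subunit of the MLL3 and MLL4 complexes, which methylate lysine 4 of histone H3. It lies on chromosome X between positions 4805990 and 4947171 of rn6, on the minus strand. It had 38.1, 35.8 and 29.7 TPM in combination libraries, 25, 23.7 and 30.5 TPM in model libraries and 25.5, 28.2 and 25.3 TPM in normal libraries. The combination libraries were all above the normal ones, and combination and model libraries overlapped, as did model and normal libraries. The log2 fold change was 0.37 ± 0.16 for combination against model, 0.37 ± 0.16 for combination against normal and -0.0022 ± 0.16 for model against normal (± SE). Kdm6b TPM divided by that of Kdm6a was 0.876, 0.514 and 0.606 in combination libraries, 2.7, 1.97 and 6.37 in model libraries and 0.403, 0.291 and 0.443 in normal libraries. By summed TPM, Kdm6b was thus above Kdm6a in each model library and below it in each of the other 6 libraries. Coverage per aligned gigabase over the reference exons, however, was higher for Kdm6b in the combination libraries (26, 14.3 and 12.8 against 14.8, 14.1 and 12.7). In normal libraries that coverage was lower for Kdm6b (8.35, 4.92 and 7.7 against 10.4, 11.5 and 10.8). The order of the 2 genes in combination libraries therefore depended on the measure.

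Suz12, the scaffold of PRC2, lies on chromosome 10 between positions 67324602 and 67371589 of rn6, on the plus strand. It had 98.9, 86.4 and 55.4 TPM in combination libraries, 65.6, 50.8 and 78.5 TPM in model libraries and 46.8, 43.3 and 38.8 TPM in normal libraries. Every library of either arthritic group was above every normal library, and the combination and model libraries overlapped. The log2 fold change was 0.28 ± 0.24 for combination against model, 0.85 ± 0.24 for combination against normal and 0.57 ± 0.24 for model against normal (± SE). The TPM was split between an assembled transcript of 13 exons and 4505 bases and a reference transcript of 21 exons and 2154 bases. The reference transcript held 29%, 24.3% and 19.9% of Suz12 TPM in combination libraries, 32.3%, 31.5% and 26.7% in model libraries and 14.4%, 14.1% and 21.2% in normal libraries. Combination and normal libraries overlapped in that share only through the third library of each group, and the model libraries lay above the normal ones. In TPM, the 21-exon transcript had 11 to 28.7 in combination libraries, 16 to 21.2 in model libraries and 6.11 to 8.21 in normal libraries. Its log2 fold change, from reference transcripts alone, was 1.34 for model against normal and 1.32 for combination against normal, above the values of the summed transcripts. Coverage over the bases of the reference exons, whichever transcript it was credited to, gave 0.63 and 0.87, near those of the summed transcripts.

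Eed, which binds trimethylated H3K27 and stimulates the methyltransferase, stayed between 36.8 and 45.4 TPM in all 9 libraries. Its reference transcript spans positions 154189260 to 154216340 of chromosome 1 of rn6, on the minus strand. Over all its listed transcripts, Eed spans positions 154092233 to 154216340. It had 44.1, 45.4 and 37.1 TPM in combination libraries, 38.8, 41.5 and 40.5 TPM in model libraries and 42.9, 40.8 and 36.8 TPM in normal libraries. All groups overlapped, and the log2 fold changes were 0.062, 0.068 and 0.0067 (SE 0.14 each) for combination against model, combination against normal and model against normal. Its reference transcript of 12 exons held 53.9% to 63.9% of its TPM over all libraries. Suz12 TPM divided by Eed TPM was 2.24, 1.9 and 1.49 in combination libraries, 1.69, 1.23 and 1.94 in model libraries and 1.09, 1.06 and 1.05 in normal libraries. By summed TPM, the 2 genes were thus near parity in normal libraries, where the SD of the ratio was 0.0195. Suz12 was in excess in every library of the other groups. Coverage per aligned gigabase over the reference exons was lower for Suz12 in normal libraries (22.8, 22.6 and 20.1 against 26.6, 25.6 and 23.9). It was higher for Suz12 in every library of the other groups, so the order in normal libraries depended on the measure.

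Ezh2 and Ezh1 are the alternative methyltransferases of PRC2, Ezh2 being known mainly from dividing cells and Ezh1 from resting ones. Ezh2 lies on chromosome 4, positions 77284404 to 77347011 of rn6, and Ezh1 on chromosome 10, positions 89104027 to 89140507, both on the minus strand. Ezh2 had 10.4, 7.32 and 2.54 TPM in combination libraries, 5.14, 5.62 and 9.33 TPM in model libraries and 4.85, 3.88 and 4.71 TPM in normal libraries. The model libraries were above the normal ones, narrowly so for model replicate 1, and the combination libraries spread over both. The log2 fold changes of Ezh2 were -0.11, 0.35 and 0.45 (SE 0.39 each) for combination against model, combination against normal and model against normal. Ezh1 had 34.4, 26.9 and 21.4 TPM in combination libraries, 19.6, 23.5 and 23.9 TPM in model libraries and 23.2, 21.6 and 23.7 TPM in normal libraries. Its groups overlapped in every pair, with log2 fold changes of 0.27, 0.24 and -0.033 (SE 0.19 each) in the same order. Ezh1 TPM exceeded Ezh2 TPM in all 9 libraries, by 3.31, 3.68 and 8.42 times in combination libraries, 3.82, 4.19 and 2.56 times in model libraries and 4.78, 5.57 and 5.03 times in normal libraries. Combination replicate 3 had the lowest Ezh2 of all libraries and, within its group, also the lowest Ezh1, Suz12, Eed, Kdm6a, Kdm6b, Bmi1 and Bcor.

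Bmi1, the Pcgf subunit of canonical PRC1 that supports its ubiquitin ligase, lies on chromosome 17, positions 85360118 to 85370283 of rn6, on the plus strand. It had 13.6, 13.6 and 12.8 TPM in combination libraries, 11.1, 10.8 and 8.39 TPM in model libraries and 12.8, 13.3 and 6.05 TPM in normal libraries. The combination libraries were all above the model ones, whereas normal replicate 3 was the lowest library of all and the normal group overlapped both others. The log2 fold changes were 0.38, 0.36 and -0.021 (SE 0.26 each) for combination against model, combination against normal and model against normal. How its TPM was divided among transcripts jumped between libraries of 1 group: 1 assembled transcript held 93%, 1.64% and 27.2% of it in combination libraries, 99.1%, 20.2% and 1.74% in model libraries and 82%, 100% and 70.9% in normal libraries. Only the sum over transcripts is therefore compared for Bmi1.

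Bcor, the corepressor of Bcl6 and a subunit of a variant PRC1, lies on chromosome X, positions 11648273 to 11691099 of rn6, on the plus strand. It had 2.79, 2.61 and 1.29 TPM in combination libraries, 12.8, 8.6 and 56.7 TPM in model libraries and 1.56, 1.53 and 2.58 TPM in normal libraries. Each model library was above all 6 others, and the combination and normal libraries overlapped. The log2 fold change was -2.64 ± 0.56 for combination against model, 0.15 ± 0.56 for combination against normal and 2.79 ± 0.56 for model against normal (± SE). Without model replicate 3 it was -1.87 for combination against model and 2.01 for model against normal. In model replicate 3, 31.1 and 18.2 TPM were given to 2 assembled 15-exon transcripts, of which the first had 0 to 1.8 TPM and the second 0 to 0.802 TPM in the other libraries. The reference transcript had 0, 2.21 and 0 TPM in combination libraries, 1.56, 0 and 1.6 TPM in model libraries and 0.719, 0 and 0.281 TPM in normal libraries. Reference transcripts alone gave a log2 fold change of -0.35 for combination against model and 0.53 for model against normal, so the size of the Bcor difference rested on assembled transcripts, as the plot of transcripts shows. Coverage over the bases of the reference exons, whichever transcript it was credited to, gave -3.11 for combination against model and 3.42 for model against normal.

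**Figure D3:**
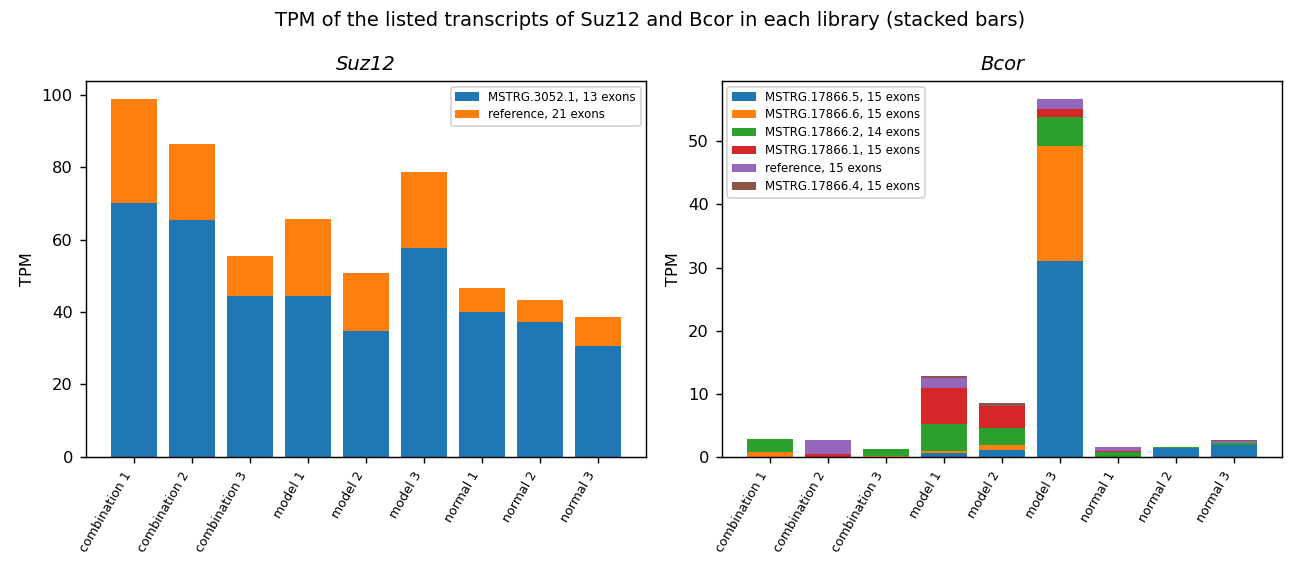
TPM of each listed transcript of Suz12 (left) and Bcor (right) as stacked bars, with the 9 libraries of the combination, model and normal groups from left to right. The 21-exon reference transcript of Suz12 has 11 to 28.7 TPM in combination, 16 to 21.2 TPM in model and 6.11 to 8.21 TPM in normal libraries, and the Bcor bar of model replicate 3 reaches 56.7 TPM.

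By mean TPM, Suz12 was the most abundant of the 8 genes in combination and normal libraries, and Kdm6b in model libraries, where its range overlapped that of Suz12. Bcor was the least abundant in combination and normal libraries, and its model range, 8.6 to 56.7 TPM, overlapped those of Kdm6a and Ezh1. Suz12 and Eed were neighbours in normal libraries with overlapping ranges (42.9 ± 4.02 and 40.1 ± 3.11 TPM), whereas in combination libraries they did not overlap. Among the 14175 tested genes, ranked by mean TPM within a group, Kdm6b lay at percentile 68.6 in combination, 91.4 in model and 49.8 in normal libraries, and Bcor at 17.4, 70.5 and 14.8. Suz12 lay at 89.9, 86.5 and 82.2 in these groups, and Eed at 80.8, 79.1 and 81.1. Ezh2 lay lower, at 40.5, 41.4 and 32.4. The spread between libraries of the model group was largest for Bcor, with an SD of 1.37 on the log2 scale, and Kdm6b, with 1.06, against a median of 0.29 over all tested genes. In normal libraries the SD was 0.28 for Bcor and 0.21 for Kdm6b, against a median of 0.16.

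For combination against model, 1 of the 8 genes passed an adjusted p of 0.05 in the limma fit (Bcor, lower), where 4.49% of all tested genes did (2.41% higher and 2.07% lower), and 1 gene lay higher and 2 lower without overlap, where 26.9% of all genes did either. For combination against normal, 0 of 8 passed in limma, where 4.6% of all genes did (2.62% higher and 1.98% lower). For combination against normal, 3 lay higher and 0 lower without overlap, where 35.8% did either. At an unadjusted limma p under 0.05 there were 3 of 8 in each of the 3 comparisons. The shares of all genes at that level were 26.3% for combination against model, 26.1% for combination against normal and 27.1% for model against normal. In the comparison of model with normal, 2 of 8 passed (Kdm6b and Bcor, both higher), where 4.99% of all genes did (2.84% higher and 2.14% lower), and 4 lay higher and 0 lower without overlap, where 33.2% did either. Their median log2 fold change was 0.17, 0.35 and 0.23 in these comparisons, beside 0.034, 0.043 and -0.011 over all tested genes. Nothing is read from these counts, or from how often the single calls below held, since the choice of genes used the same contrasts. The call of Kdm6b against normal held in 6 of 9 fits that left out 1 library and ended without normal replicate 1, 2 or 3, where its log2 fold change was 2.88 to 3.08. That of Bcor against normal held in 4 of 9 and ended also without combination replicate 2 or model replicate 1 (log2 fold change 3.04). Its call against the model held in 1 of 9, without model replicate 2, with log2 fold changes of -3.16 to -1.87 over the fits without 1 combination or model library.

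The genes whose profile over the 9 libraries was nearest to that of each member were found by the root mean square distance between z-scored log2(TPM + 1) values, among tested genes of at least 5 TPM. For Kdm6b they were Tmem251 (distance 0.12), the transcription factor gene Bhlhe40 (0.13), Wsb1 (0.16), Srpra (0.18) and Arl5b (0.18), and Bcor was the nearest of the other members, at 0.34. Bhlhe40 had 57.7, 37.3 and 28.6 TPM in combination libraries, 104, 89.4 and 282 TPM in model libraries and 23.5, 13.1 and 18.7 TPM in normal libraries. Nearest to Bcor were Dnajb5 (0.15) and Frmd4b (0.17). Suz12 was nearest to Rhoq (0.11) and Sdha (0.13), Kdm6a to Sf3b1 and Ncbp1 (both 0.2), and Ezh1 to Notch2 (0.22) and Fam45a (0.25). The nearest profiles were less close for Ezh2 (Atp11b and Stk40, both 0.29), Eed (Upf2 and Sephs2, both 0.3) and Bmi1 (Krr1, 0.43, and Chic1, 0.44). With 9 libraries in 3 groups, many genes share such a profile, and the distances are a description.

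Genes that work beside these 8 were taken from 10 lists, of which 108 genes were tested in the same limma fit with Benjamini-Hochberg adjustment over all genes. For combination against model, 3 were higher and 2 lower at an adjusted p under 0.05, or 4.63% of them, against 4.49% of all genes. For combination against normal, 1 was higher and 1 lower, or 1.85%, against 4.6% of all genes. For model against normal, 3 were higher and 1 lower, or 3.7%, against 4.99% of all genes. The shares were thus close to or below those of all genes. Since the lists, too, were chosen with earlier results of these data known, their shares and p-values are no independent test. At an unadjusted p under 0.05 there were 26.3%, 26.1% and 27.1% of all genes in these comparisons. In the same order, the PR-DUB list had 4, 2 and 5 of 10 genes, the cell cycle list 6, 2 and 3 of 9, the other methyltransferases 5, 7 and 1 of 15, and the other demethylases 3, 5 and 5 of 17. The variant PRC1 list had 2, 2 and 3 of 14, and the core PRC1 list 2, 2 and 3 of 12. Genes listed for Polycomb control had 3, 2 and 1 of 7. The PRC2 accessory list had 1, 1 and 1 of 8, the partners of Kdm6a 2, 0 and 1 of 9, and the acetylation genes 1, 1 and 0 of 7. These counts describe the lists, without a test of a list, and the plot of related genes shows their fold changes by list.

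**Figure D4:**
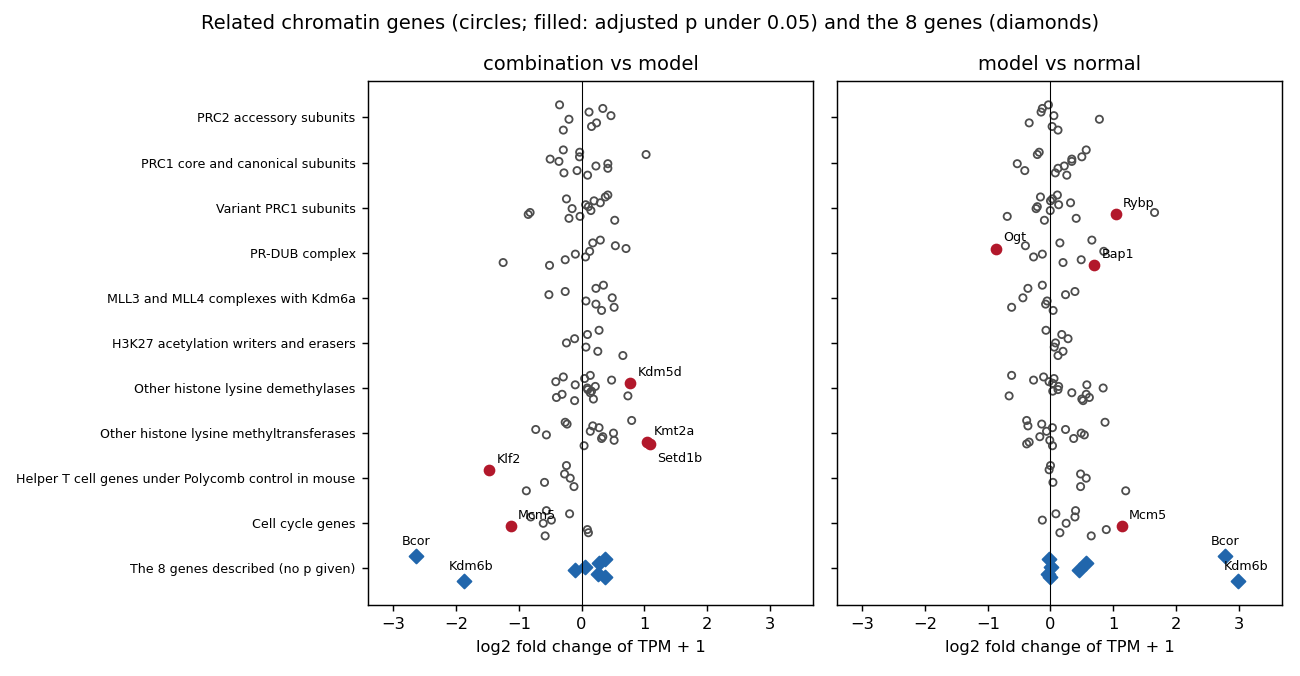
Log2 fold change of TPM + 1 of 108 related genes (circles, by list, filled and named where the adjusted p was under 0.05 in limma) and of the 8 genes described (diamonds, no p given), for combination against model (left) and model against normal (right). Among the 8 genes, Bcor and Kdm6b lie farthest from 0, at -2.64 and -1.88 on the left and 2.79 and 2.99 on the right.

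Of 8 tested accessory subunits of PRC2, 0 passed in limma in any comparison. The nearest for combination against model was Mtf2, a Polycomb-like protein that helps recruit PRC2, with 23.6 ± 3.11 TPM in combination and 16.6 ± 0.799 TPM in model libraries (SD, n = 3 each; log2 fold change 0.47 ± 0.15, limma adjusted p = 0.0934). For model against normal it was Aebp2, with 20.4 ± 5.66 TPM in model and 11.4 ± 2.7 TPM in normal libraries (0.78 ± 0.28, limma adjusted p = 0.115). Of 12 core and canonical PRC1 subunits, 0 passed in limma. Phc3, a polyhomeotic subunit, had 31.7 ± 8.42 TPM in combination and 16.3 ± 8 TPM in model libraries (1.03 ± 0.40, limma adjusted p = 0.141). Cbx7, a chromodomain subunit that binds the H3K27 mark, had 29.4 ± 5.14 TPM in model and 43.1 ± 7.14 TPM in normal libraries (-0.53 ± 0.20, limma adjusted p = 0.131).

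Of 14 variant PRC1 subunits, 1 passed in the model. Rybp, which binds the catalytic subunits in place of a Cbx protein, had 38.2, 35.6 and 72.1 TPM in model libraries and 24.5, 21.2 and 20.2 TPM in normal libraries. It rose in the model libraries, which did not overlap the normal ones (log2 fold change 1.04 ± 0.25, limma adjusted p = 0.0472). In combination libraries Rybp had 27.9, 25.2 and 22.5 TPM, all below the model libraries (-0.85 ± 0.25, limma adjusted p = 0.0788).

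Among the 10 genes of the PR-DUB complex, which takes ubiquitin off histone H2A, 1 rose and 1 fell in the model. Bap1, the deubiquitinase itself, rose, with 101, 116 and 120 TPM in model libraries and 65.2, 78.1 and 63.7 TPM in normal libraries (0.70 ± 0.16, limma adjusted p = 0.0433). Ogt, the O-GlcNAc transferase found with it, fell, with 12.4, 17.4 and 11.4 TPM in model libraries and 23.9, 25 and 27.9 TPM in normal libraries (-0.87 ± 0.20, limma adjusted p = 0.0418). Both lay apart in the opposite direction between combination and model libraries, without passing. Bap1 averaged 78.8 ± 12.3 TPM in combination and 112 ± 10.2 TPM in model libraries (SD, n = 3 each; -0.51 ± 0.16, limma adjusted p = 0.0901), and Ogt 23 ± 4.26 TPM in combination and 13.7 ± 3.2 TPM in model libraries (0.71 ± 0.20, limma adjusted p = 0.0705).

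Of the 9 partners of Kdm6a in the MLL3 and MLL4 complexes and of the 7 writers and erasers of H3K27 acetylation, 0 passed the threshold in limma. Kmt2d, the MLL4 methyltransferase, had 25.7 ± 7.05 TPM in model and 39.3 ± 3.61 TPM in normal libraries (-0.62 ± 0.22, limma adjusted p = 0.11). Crebbp, an acetyltransferase of H3K27, had 17.6 ± 5.41 TPM in combination and 10.5 ± 2.1 TPM in model libraries (0.66 ± 0.22, limma adjusted p = 0.104). Among 17 other histone lysine demethylases, Kdm5d rose in combination libraries. This Y-linked demethylase of lysine 4 had 24.9, 22.4 and 15.8 TPM in combination libraries, 11.3, 11 and 12.6 TPM in model libraries and 11.1, 11 and 11.9 TPM in normal libraries (0.78 ± 0.18 against model, limma adjusted p = 0.0468; 0.81 ± 0.18 against normal, limma adjusted p = 0.0434). The sex of the rats is not given here, and its part in the Kdm5d difference was not tested. Kdm5a, of the same family as Kdm5d, had 67.5 ± 13.6 TPM in model and 37.9 ± 10.5 TPM in normal libraries (0.84 ± 0.25, limma adjusted p = 0.077).

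Of 15 other histone lysine methyltransferases, 2 that act on lysine 4 of histone H3 rose in combination against model. Setd1b had 8.27, 5.35 and 4.45 TPM in combination libraries and 1.53, 2.77 and 2.48 TPM in model libraries (1.09 ± 0.26, limma adjusted p = 0.0464). Kmt2a had 9.26, 6.62 and 5.53 TPM in combination libraries and 2.48, 3.06 and 3.14 TPM in model libraries (1.04 ± 0.22, limma adjusted p = 0.0384). The groups did not overlap for either gene.

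Among 7 tested genes listed here for Polycomb control in mouse helper T cells, Klf2 fell in combination libraries. Whether Polycomb complexes control these genes in the cells used here was not tested. Klf2, a factor of quiescent T cells, had 143, 91.5 and 111 TPM in combination libraries, 358, 232 and 376 TPM in model libraries and 239, 365 and 375 TPM in normal libraries (-1.47 ± 0.25 against model, limma adjusted p = 0.0261; -1.49 ± 0.25 against normal, limma adjusted p = 0.0258). Tbx21, the Th1 factor, had 5.44, 4.2 and 11.5 TPM in model libraries and 3.12, 1.47 and 2.44 TPM in normal libraries, apart but not past the threshold (1.20 ± 0.32, limma adjusted p = 0.0611). Of 9 tested cell cycle genes, Mcm5, a subunit of the replicative helicase, rose in model against normal libraries and fell in combination against model libraries. It had 11.7, 11.2 and 8.4 TPM in combination libraries, 23.7, 19.1 and 29.4 TPM in model libraries and 10.7, 10.8 and 9.15 TPM in normal libraries (-1.13 ± 0.20 for combination against model, limma adjusted p = 0.0276; 1.14 ± 0.20 for model against normal, limma adjusted p = 0.0228).

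The calls of these related genes were close to the threshold. Each of the 11 ended when some single library was left out, and each held in 1 to 5 of 9 such fits, with Klf2 against the model holding most often, in 5 of 9. Combination replicate 2, model replicate 1, normal replicate 1 and normal replicate 2 each ended 10 of them when left out, model replicate 3 and normal replicate 3 each 9, combination replicate 1 8, combination replicate 3 2 and model replicate 2 1. The largest limma adjusted p without 1 library was 0.147 for Rybp, 0.139 for Bap1, 0.133 for Ogt, 0.15 for Kdm5d, 0.124 for Setd1b, 0.104 for Kmt2a, 0.101 for Klf2 and 0.0894 for Mcm5. The direction of each was the same in all 9 fits.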

How the data were processed

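Total RNA of CD4+ T cells was sequenced from libraries made with an NEBNext Ultra kit, per the labels' protocols, and whether strand was used is not given in the sources used here. Reads were handled with bcl2fastq and HISAT2 on rn6, per the submitters' processing notes, and StringTie 1.3.3b estimated a fixed, merged transcript set, per the file headers. The deposited tables hold TPM, FPKM and coverage, other text attributes of each transcript, as the authors' StringTie run computed them. Coverage of exons shared by transcripts was divided among them by that run. Counts were not used here, so no counting intervals are given.

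TPM was summed per gene name of the reference at each locus. Assembled transcripts went to the only name of the locus or that of largest exon overlap. The fit took genes whose mean was 1 TPM or more (14175 of 30032 above 0) and used limma 3.58.1 (R 4.3.3) on log2(TPM + 1), all 9 libraries sharing 1 spread (6 residual and 3.53 prior degrees of freedom, intensity trend). The pseudocount of 1 understates changes of low genes such as Bcor. Benjamini-Hochberg adjustment ran over all genes, with 0.05 as threshold. Python 3.11.15 with pandas 2.3.3, numpy 2.4.6 and matplotlib 3.10.9 did the rest.

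The 8 genes and the lists were chosen with earlier results of these data known. From each list, up to 4 genes past the threshold were tabulated, or else the 2 of smallest p, and a part is printed. Not found under the names used were Epop, Pcgf1, Uty, Whsc1, Whsc1l1, Suv39h1 and the marker Cd5. Alternatives were other pseudocounts, filters, scaling, FPKM, reference transcripts alone, fits of 2 groups or without trend, a replicate block and omission of each library.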

Additional observations from a re-analysis of the deposited data

How the results depend on the processing

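Of 309 alternative values of the 8 genes' log2 fold changes, 299 moved by less than 1 SD, 10 moved further and 0 reversed a called value. The SD was each gene's own residual SD, which was wide for Kdm6b and Bcor, so that omission of model replicate 3 counted as less than 1 SD. A reversal was scored only for called values. Values not called changed sign among the alternatives in at least 1 comparison for Kdm6a, Ezh1, Ezh2, Eed, Suz12 and Bmi1. For Bcor, a pseudocount of 5 gave -1.77 for combination against model and 1.84 for model against normal. Reference transcripts alone turned the sign of Ezh1 (-0.31 for combination against model and -0.55 for combination against normal) and of Bmi1 (-0.27 and -0.29). They also turned that of Suz12 for combination against model (-0.027), and could not be fitted for Kdm6b, listed at 0. The Bmi1 reference transcript was above 0 only in model replicate 3 (0.755 TPM) and normal replicate 3 (0.832 TPM), so its values rested on these libraries. The cause was not tested for Ezh1 or Suz12. Of 947 values of named related genes, 105 fell short of the threshold that the reported value passed, 47 newly passed it and 0 reversed. Of the 8 genes, 0 passed for model against normal without a filter, with only the 2 groups compared or on reference transcripts alone, where 2 did as reported, and 1 passed with the replicate block. For combination against model, where 1 did (Bcor), 0 passed in these settings, with a pseudocount of 5 or with the block, and 2 on FPKM or with median-ratio scaling. For combination against normal, where 0 did, 1 passed on FPKM, with median-ratio scaling or with only the 2 groups compared. The deposited values carry no counting error.

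Genes past the threshold, for combination against model (636), combination against normal (652) and model against normal (707), numbered 196, 206 and 86 without a filter, 1333, 1266 and 1191 on FPKM, 1566, 1504 and 1450 with median-ratio scaling (factors of 0.881 to 1.13), and 24, 1391 and 113 with only the 2 groups compared. At a mean of at least 5 TPM the first 2 were 400 and 389. Without 1 library they were 31 to 1305, 21 to 1583 and 34 to 2813.

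Related genes past the threshold (5, 2 and 4 in the same order) numbered 1, 0 and 0 without a filter, 15, 13 and 8 on FPKM, 13, 15 and 12 with median-ratio scaling, and 0, 5 and 0 with only the 2 groups compared. For combination against model there were 3 at a mean of at least 5 TPM and 3 with a pseudocount of 5, and for model against normal 2 without the intensity trend. Without 1 library they were 0 to 11, 0 to 7 and 0 to 14. The causes were not tested.

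Replicate numbers are shared by the groups, but residuals of same-numbered libraries had correlations of -0.14 to 0.056, and only 1 of the 9 was closest to a library of its own number, so the numbers were not taken to pair the libraries. With the replicate number as a block, 9, 82 and 163 genes and 0, 0 and 0 related genes passed in limma.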
